A study of Mus musculus with 13 samples.

Results

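Potassium channel genes were examined in hippocampal RNA of mice 3 days after pilocarpine-induced status epilepticus (SE) or a saline sham injection. The members were the protein-coding genes of the deposited table whose symbol starts with Kcn, and there were 94 of them among 45777 genes. By symbol they fell into 40 voltage-gated (Kv) alpha subunits, 15 inward rectifiers, 14 tandem pore domain (K2P) channels, 8 channels activated by calcium or sodium, and 17 auxiliary or regulatory subunits. There were 13 libraries, with 4 in the sham-cKO group and 3 each in the sham-WT, SE-WT and SE-cKO groups. WT mice were Nestin-Cre::Lin28a+/+ and cKO mice were Nestin-Cre::Lin28aloxP/loxP, so that both genotypes carried the Nestin-Cre transgene, whose promoter is active in neural progenitors and which reaches their neuronal and glial descendants. Pilocarpine was given to SE mice (males 260 mg/kg, females 280 mg/kg) after scopolamine methyl nitrate and terbutaline, and diazepam followed. Mice were 6 weeks old at injection by the study's methods, both sexes were used, and the labels give no sex for a library. Only mice that entered SE were taken into the SE groups.

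Potassium channels let potassium leave the cell and so set the resting potential, end the action potential and limit repetitive firing. In the hippocampus, Kv channels of axons and dendrites shape spikes, Kv7 (Kcnq) channels carry the M-current that restrains bursts, calcium-activated channels carry afterhyperpolarisations, and G protein-gated inward rectifiers (GIRK) carry slow inhibition. Astrocytes take up extracellular potassium mainly through Kir4.1, and microglia set their resting potential with a K2P channel. Mutations in several of these genes cause inherited epilepsies, among them KCNQ3, KCNA1, KCNA2 and KCNT1.

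Each library held between 59659977 and 84354243 counts, and the members took 0.312% to 0.558% of them. Levels are CPM, counts scaled to a common library size by TMM over the 13 libraries, and values are listed in the order of the replicate numbers. A gene was called where the adjusted p of edgeR's quasi-likelihood test, taken over all genes tested, was under 0.05, and fold changes are on the log2 scale with ± their standard error. Of the 94 members, 85 were tested in at least 1 of 5 comparisons and 9 were too low in all of them. The 9 were Kcna7, Kcna10, Kcne1, Kcnj1, Kcnj15, Kcnk15, Kcnk16, Kcnk18 and Kcnmb3, with no value above 0.643 CPM. Kcnk16 was at 0 counts in every library, which allows up to 0.0356 to 0.0503 CPM per library when 3 counts are taken as the limit for counting error. Lin28a, the deleted gene, had 3 counts in SE-WT replicate 3 and 0 in every other library, so its level could not check the genotype labels. There were 3 libraries that stood apart by genes of neighbouring regions. In SE-WT replicate 2, 8 striatal markers summed to 1015 CPM against 33.4 to 76.4 CPM elsewhere, and in sham-cKO replicate 2 and SE-WT replicate 3, 7 thalamic markers summed to 997 and 589 CPM. Of hippocampal markers, 8 granule cell genes of the dentate gyrus summed to 442.1 to 616.1 CPM in sham mice and 184 to 411 CPM in SE mice. Their median log2 difference from sham was -0.45 to -1.24 in SE-cKO and -2.62, -3 and -1.1 in SE-WT replicates 1, 2 and 3. In SE-WT replicate 2 the sum rested on Dock10 (205 CPM) and Calb1 (89.3 CPM), while the granule cell genes C1ql2, Dsp, Lct and Tdo2 and the pyramidal cell gene Neurod6 were all between 0.399 and 0.964 CPM, so that several specific hippocampal markers were near 0 in this library. Replicates are separate mice by their labels, and no pair of libraries agreed within sampling noise.

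In sham-WT hippocampus the auxiliary and Kv subunits were the most abundant per unit of length. By deposited TPM, a level per length that allows genes to be compared, Kcnab2, a cytoplasmic beta subunit of Kv1 channels, led the members at 143 ± 15.4 TPM (SD, n = 3). Kcnab1, another beta subunit, stood at 50.7 ± 8.42 TPM, Kcnip2, a calcium-binding subunit of Kv4 channels, at 44.6 ± 8.78 TPM, and Kcnmb4, the neuronal beta subunit of the BK channel, at 40.4 ± 5.86 TPM. Of the Kv alpha subunits described here, Kcnd2 (Kv4.2) was at 40.6 ± 8.28, Kcna1 at 26.2 ± 2.2, Kcnc2 at 24.8 ± 2.60 and Kcna2 at 22.9 ± 3.95 TPM. Kcnd2 was above the other 3, which lay within each other's spread. Kcnk1 (TWIK-1) led the K2P channels at 49.7 ± 4.76 TPM, with Kcnk2 (TREK-1) next at 9.42 ± 1.15 TPM and Kcnk9 (TASK-3), Kcnk10 and Kcnk12 below it. Kcnma1, the BK channel alpha subunit, led the activated channels at 32.4 ± 4.08 TPM, above Kcnn2 (SK2) at 19.6 ± 2.09, Kcnt2, Kcnt1 and Kcnn1. The inward rectifiers were led by Kcnj3 (GIRK1) at 35.8 ± 8.34 TPM, followed by Kcnj9 (GIRK3), Kcnj4, Kcnj6 (GIRK2) and Kcnj10 (Kir4.1) at 15.1 ± 2.93 TPM. Summed over each subfamily, sham-WT held 405 ± 41.0 TPM of Kv alpha, 363 ± 35.7 of auxiliary, 156 ± 18.5 of inward rectifier, 81.5 ± 6.17 of K2P and 81.4 ± 7.36 TPM of activated channel transcripts.

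**Figure D1:**
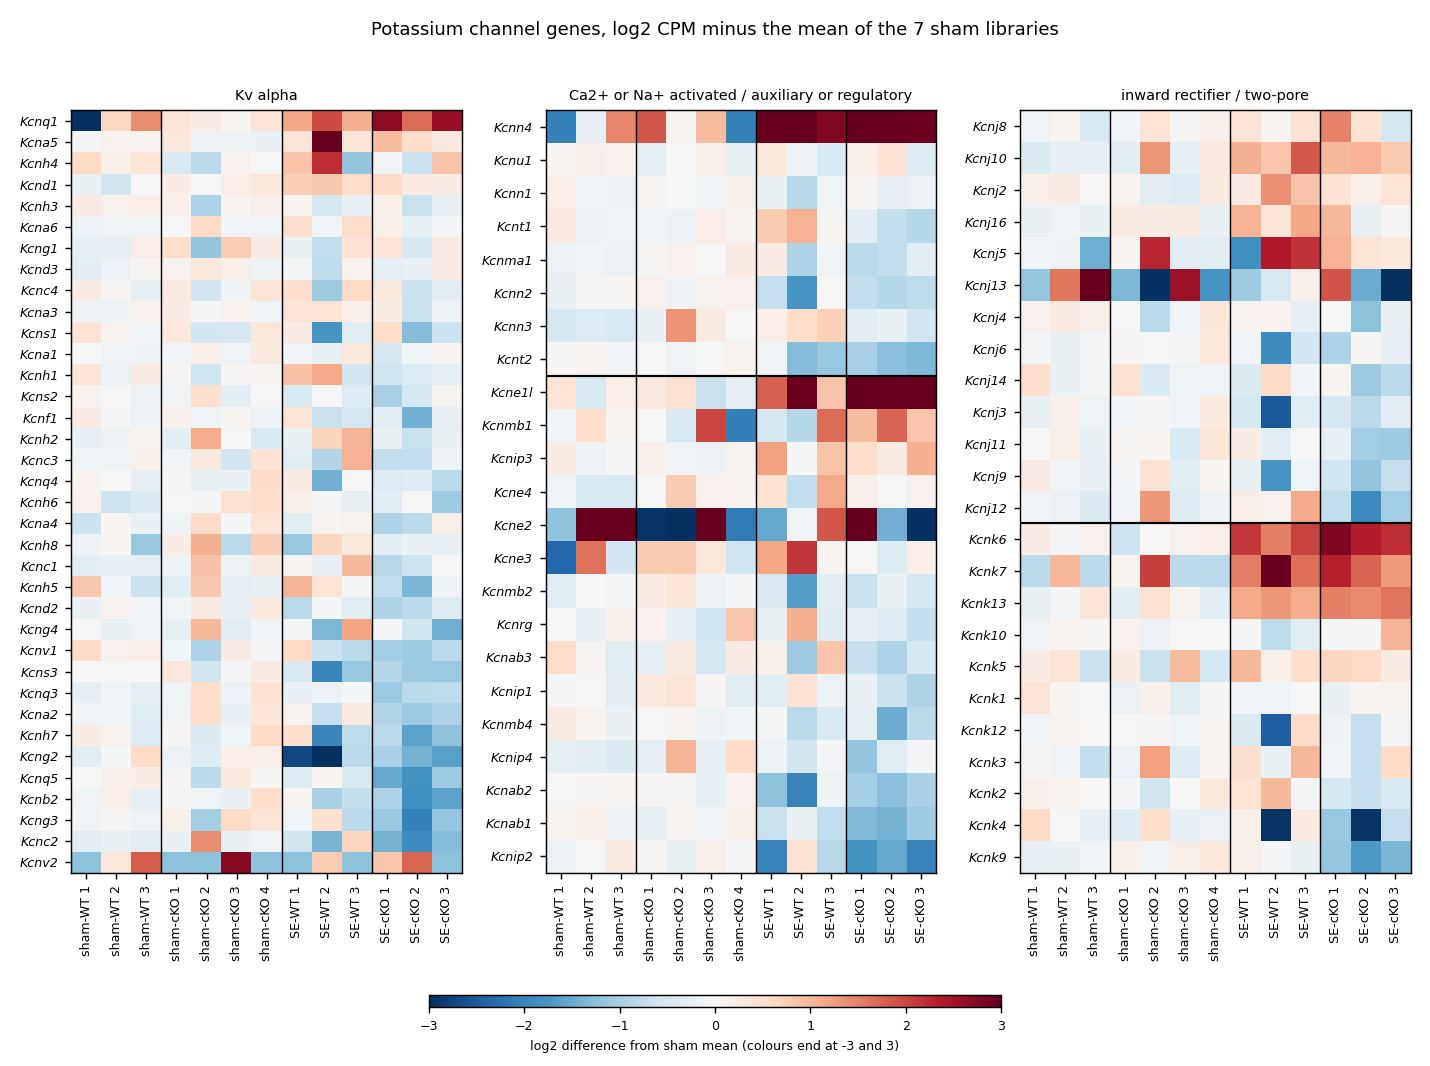
There are 83 tested members (rows, grouped by subfamily and ordered by the change in cKO mice) in the 13 libraries (columns, vertical lines between groups), as log2 CPM minus the mean of the 7 sham libraries, red for higher and blue for lower, with colours ending at -3 and 3. The median over the members lies between -0.64 and -0.28 in the SE-cKO columns and between -0.17 and 0.08 in the SE-WT columns, and Kcnk6, Kcnk13 and Kcnn4 are red in all 6 SE libraries.

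The first comparison asked what SE changed in WT mice. SE left 5 members higher and 0 lower in WT mice, out of 83 tested, which is 6.02% higher against 4.57% of all genes called higher in this comparison, and 0% lower against 0.832% of all genes. The median log2 fold change over the members was 0.07 against 0.02 over all genes. The members called higher belonged to the glial inward rectifiers (Kcnj10 and Kcnj16), the K2P channels (Kcnk6 and Kcnk13) and the SK channels (Kcnn3). At an unadjusted p under 0.05, 14 members were higher and 7 lower, and DESeq2 called 8 higher and 2 lower (Kcng2 and Kcns3). The shares of all genes under these rules were not taken here, so nothing is read from the size of these counts. The edgeR calls moved with single mice, and 1, 0 and 2 members were called higher without sham-WT replicate 1, 2 and 3. Without SE-WT replicate 1, 3 members were called lower, and 2 each without SE-WT replicate 2 and 3.

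Kcnj10 encodes Kir4.1, the main potassium channel of astrocytes, and lies on chromosome 1 from 172341210 to 172374085 of mm10. It was at 63.0, 70.9 and 69.3 CPM in sham-WT and at 176, 152 and 302 CPM in SE-WT. The SE-WT mice were all above the sham-WT mice, and the highest was SE-WT replicate 3, a library high in thalamic genes. Its log2 fold change was 1.60 ± 0.26 (adjusted p = 0.016), and without that library 1.27 with adjusted p = 0.00451, but the call was lost on leaving out any of the 3 sham-WT mice (adjusted p = 0.0781 to 0.0969). In cKO mice Kcnj10 was at 66.7, 212, 68.7 and 104 CPM after sham, where replicate 2 was the thalamic library, and at 167, 176 and 147 CPM after SE. These groups overlapped through that library, and the log2 fold change of 0.51 ± 0.38 (adjusted p = 0.398) did not pass. Without sham-cKO replicate 2 it was 0.98 and passed (adjusted p = 0.00853). Kcnj16 (Kir5.1), which forms heteromers with Kir4.1, rose from 17.3, 18.2 and 17.3 CPM in sham-WT to 40.9, 25.6 and 44.0 CPM in SE-WT, a log2 fold change of 1.04 ± 0.21 (adjusted p = 0.0345), a call lost without any of sham-WT replicate 1, 2 and 3 and SE-WT replicate 1 and 3 (adjusted p = 0.0613 to 0.147). Kcnj16 was at 23.0, 23.1, 23.7 and 17.1 CPM in sham-cKO and 39.3, 17.0 and 20.2 CPM in SE-cKO, with 1 SE-cKO mouse above the rest. Of 8 astrocyte markers, 3 were called higher after SE in each genotype and 1 lower in cKO mice. Their summed level was 5610 to 6038 CPM in sham-WT, 7462 to 8595 in SE-WT, 5140 to 6575 in sham-cKO and 8930 to 10090 CPM in SE-cKO. The higher sums rested on Gfap, with means of 327, 2695, 276 and 4687 CPM in the same order. Slc1a2, the largest part of the sum in sham mice, had means of 3289, 2427, 3522 and 1970 CPM. The median log2 difference of the list from sham was 0.31 to 0.63 in SE-WT and 0.07 to 0.35 in SE-cKO. The part of these markers in the Kcnj10 and Kcnj16 values was not tested. In bulk tissue a change in the number of cells of a type and a change in RNA per cell cannot be told apart, here and below.

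Kcnk6 (TWIK-2) and Kcnk13 (THIK-1) were higher after SE in both genotypes. THIK-1 is the K2P channel that sets the resting potential of microglia, and TWIK-2 provides potassium efflux in macrophages. Kcnk6, on chromosome 7 from 29221928 to 29232522, was at 3.18, 2.62 and 2.98 CPM in sham-WT, 11.9, 7.75 and 11.2 in SE-WT, 1.77, 2.69, 2.98 and 3.13 in sham-cKO and 19.0, 14.1 and 12.8 CPM in SE-cKO. Every SE mouse was above every sham mouse. The log2 fold changes were 1.78 ± 0.23 (adjusted p = 0.00635) in WT and 2.51 ± 0.24 (adjusted p = 0.00023) in cKO mice, and the WT call was lost without sham-WT replicate 2 (adjusted p = 0.0561). Kcnk13, on chromosome 12 from 99963149 to 100062682, went from 5.42, 6.03 and 8.15 CPM in sham-WT to 13.9, 15.6 and 13.6 CPM in SE-WT and from 4.98, 8.66, 6.81 and 5.03 CPM in sham-cKO to 18.1, 16.8 and 19.2 CPM in SE-cKO, again with no overlap. Its log2 fold changes were 1.11 ± 0.20 (adjusted p = 0.0236) and 1.48 ± 0.22 (adjusted p = 0.00185), the first lost without sham-WT replicate 1 or 2 or SE-WT replicate 1 (adjusted p = 0.0605 to 0.135). All 8 microglial markers were called higher in both genotypes, and their summed level was 367 to 390 CPM in sham-WT, 1215 to 1628 in SE-WT, 347 to 374 in sham-cKO and 1414 to 2254 CPM in SE-cKO. The part of the microglial markers in the Kcnk6 and Kcnk13 values was not tested.

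Kcnn3 encodes SK3, a small-conductance calcium-activated channel, and lies on chromosome 3 from 89520164 to 89672494. It was at 14.8, 15.9 and 14.9 CPM in sham-WT and 24.3, 30.8 and 34.5 CPM in SE-WT, and the groups did not overlap. The log2 fold change was 0.95 ± 0.16 (adjusted p = 0.02), and the call was lost without any of the 3 sham-WT mice (adjusted p = 0.0868 to 0.103). In cKO mice it was at 18.4, 53.5, 24.8 and 21.0 CPM after sham and 16.9, 18.1 and 14.1 CPM after SE, and the thalamic sham-cKO replicate 2 was far above the others. With the striatal and thalamic marker levels as covariates, the WT log2 fold change was 0.40 and the call was lost (adjusted p = 0.489).

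**Figure D2:**
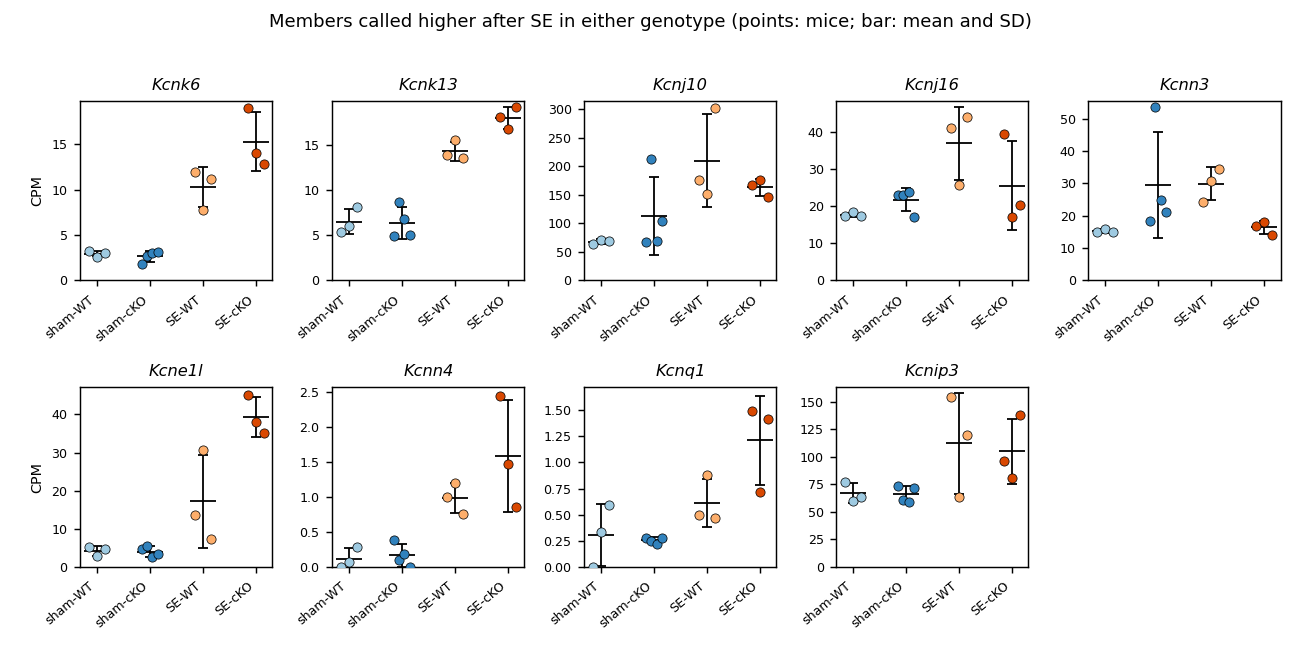
CPM (vertical axis, from 0) in each of the 4 groups for the 9 members called higher after SE in either genotype, with 1 point per mouse and bars for the mean and SD. Kcnk6 and Kcnk13 separate sham from SE in both genotypes, Kcnj10, Kcnj16 and Kcnn3 were called in WT mice, and Kcne1l, Kcnn4, Kcnq1 and Kcnip3 in cKO mice.

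The same question in cKO mice gave 6 members higher and 22 lower, out of 84 tested. That is 7.14% higher against 13.8% of all genes called higher, and 26.2% lower against 8.92% of all genes called lower. The median log2 fold change was -0.59 over the members and 0 over all genes, and 65 of the 84 values were negative. By subfamily, 12 of 37 Kv alpha subunits were lower and 1 higher, 4 of 8 activated channels lower and 1 higher, 3 of 15 auxiliary subunits lower and 2 higher, 2 of 13 inward rectifiers lower and none higher, and 1 of 11 K2P channels lower and 2 higher. DESeq2 called 7 higher and 32 lower, and its share over all genes was not taken in this comparison. Leaving out SE-cKO replicate 2 left 13 members lower, the largest loss among the 7 libraries of the comparison, and the other omissions left 21 to 24. With sham-cKO replicate 2 left out as the thalamic library, 24 were lower and 5 higher, and 26 of the 28 calls were shared.

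Beside Kcnk6 and Kcnk13, the higher members were Kcne1l, Kcnq1, Kcnn4 and Kcnip3. Kcne1l, on chromosome X from 142304753 to 142306198, is the mouse counterpart of KCNE5, a single-span regulatory subunit of Kv channels, and its description calls it a pseudogene although its biotype is protein coding. It was at 4.83, 5.47, 2.497 and 3.36 CPM in sham-cKO and 45.0, 37.9 and 35.0 CPM in SE-cKO. All 3 SE-cKO mice were far above the sham range, with a log2 fold change of 3.26 ± 0.27 (adjusted p = 0.000105). WT mice were at 5.31, 2.86 and 4.59 CPM after sham and 13.7, 30.7 and 7.22 CPM after SE, a log2 fold change of 2.00 ± 0.53 (adjusted p = 0.0825) that did not pass and that DESeq2 called (adjusted p = 0.000953). Kcnn4 encodes the intermediate-conductance channel KCa3.1 of immune cells, and was at 0.389, 0.0932, 0.191 and 0 CPM in sham-cKO and 2.45, 1.47 and 0.852 CPM in SE-cKO, so that its level was low in all mice. Its log2 fold change was 3.17 ± 0.94 (adjusted p = 0.0408), lost without any SE-cKO mouse or without sham-cKO replicate 2 or 3 (adjusted p = 0.0519 to 0.127). In WT mice the corresponding values were 0, 0.0690 and 0.287 CPM in sham-WT and 0.999, 1.198 and 0.764 CPM in SE-WT (log2 change 3.06 ± 1.11, adjusted p = 0.174).

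Kcnq1 (Kv7.1), a channel better known from heart and epithelia, was at 0.279, 0.249, 0.218 and 0.279 CPM in sham-cKO and 1.49, 0.720 and 1.42 CPM in SE-cKO, a log2 fold change of 2.21 ± 0.42 (adjusted p = 0.00639) that passed in 13 of 17 alternatives. In WT mice it was at 0, 0.331 and 0.590 CPM after sham and 0.499, 0.881 and 0.468 CPM after SE (log2 change 0.99 ± 1.17, adjusted p = 0.693), with groups that overlapped. Its exons overlap those of the antisense transcript Kcnq1ot1, and since the strand setting of the counting is not stated, reads of both cannot be told apart. The same holds for 28 members with an exon on which an exon of another gene lies, 26 of them on the opposite strand, among them Kcnab1, Kcng2, Kcnj3, Kcnj9, Kcnma1, Kcnn2, Kcnq5 and Kcnt2. Markers of infiltrating leukocytes, mainly Ccr2, Ly6c2 and Plac8, summed to 1.46 to 2.25 CPM in sham-cKO and 10.1 to 49.6 CPM in SE-cKO, while the T cell marker Cd3e was at 0 in every library. All 3 testable markers of that list were higher in SE-cKO and none passed in SE-WT, where the sum was 1.77 to 20.2 CPM. The part of these cells in the Kcnn4 and Kcnq1 values was not tested.

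Kcnip2 and Kcnip3 encode KChIP2 and KChIP3, calcium-binding subunits of Kv4 channels, of which KChIP3 (DREAM) also acts as a transcriptional repressor. They were called in opposite directions in cKO mice. Kcnip2, on chromosome 19 from 45792346 to 45816422, was at 83.6, 70.0, 91.3 and 79.7 CPM in sham-cKO and 23.6, 28.6 and 20.6 CPM in SE-cKO, the largest fall among auxiliary subunits with a log2 fold change of -1.77 ± 0.15 (adjusted p = 0.000123). In WT mice it was at 72.4, 82.1 and 99.8 CPM after sham and 20.8, 112 and 46.3 CPM after SE, where the high value was the striatal library. The log2 fold change of -0.52 ± 0.54 (adjusted p = 0.646) did not pass. Kcnip3, on chromosome 2 from 127456498 to 127522094, was at 73.4, 61.0, 59.0 and 71.7 CPM in sham-cKO and 96.4, 80.5 and 138 CPM in SE-cKO, a log2 fold change of 0.64 ± 0.18 (adjusted p = 0.0376) that passed in 4 of 17 alternatives and was lost without any library but SE-cKO replicate 2 (adjusted p = 0.0539 to 0.0945). In WT mice it was at 77.2, 60.0 and 63.6 CPM in sham-WT and 154, 63.3 and 119.9 CPM in SE-WT (log2 change 0.72 ± 0.30, adjusted p = 0.232).

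Promoter sequence was read from RefSeq (GRCm38.p6, the build of mm10), where 69 of the 94 members had 94 start sites. The motif GGGCGG, the core of the GC box bound by Sp1, was searched on both strands of the 250 bases before each start, and was found in 44.7% of member promoters and 32.7% of all 32851 promoters. The TATA motif TATAAA was found in 3.2% and 12.4%, and the cAMP response element TGACGTCA in 0% and 1.5%. The median content of G or C in these windows was 58.6% for member promoters and 52.4% for all promoters. Its part in the motif shares was not tested. The share with GGGCGG was 43.5% over the 23 promoters of members lower in SE-cKO and 50% over the 6 of members higher. The 150 bases before a start of the Kv4 partners above, chosen after their values were seen, are shown since the genes share a family and moved apart, with the motif in capitals. Kcnip2 is read on the minus strand of chr19:45816064-45816213 with 73.3% G or C, and Kcnip3 on the minus strand of chr2:127482500-127482649 with 68.7% G or C.
Kcnip2: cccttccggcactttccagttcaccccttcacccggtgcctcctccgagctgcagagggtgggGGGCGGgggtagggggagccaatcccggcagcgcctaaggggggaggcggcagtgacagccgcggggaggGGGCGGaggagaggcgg
Kcnip3: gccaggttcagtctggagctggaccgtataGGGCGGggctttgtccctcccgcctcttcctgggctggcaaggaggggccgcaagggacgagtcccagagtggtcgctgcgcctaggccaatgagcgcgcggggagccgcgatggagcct
Only windows that held the motif were kept for display, so its presence in both was fixed by that choice. It stood 2 times in Kcnip2 and 1 time in Kcnip3, and both windows were rich in G and C. Both windows lay within the spans given above for their genes, and so preceded a start other than the outermost.

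The Kv1 partners Kcnab1 and Kcnab2 fell as well. Kcnab2 was at 429, 434, 350.2 and 458 CPM in sham-cKO and 208, 176 and 216 CPM in SE-cKO, a log2 fold change of -1.09 ± 0.13 (adjusted p = 0.000719). Kcnab2 in WT mice was at 416, 435 and 439 CPM after sham and 178, 107 and 381 CPM after SE, where all 3 were below the sham mice and the third was nearest to them (log2 change -0.98 ± 0.41, adjusted p = 0.233). Kcnab1 was at 116, 148, 129.7 and 157 CPM in sham-cKO and 56.1, 51.9 and 66.2 CPM in SE-cKO, a log2 fold change of -1.27 ± 0.14 (adjusted p = 0.000465), and at 151, 158.8 and 123 CPM in sham-WT and 87.9, 120.2 and 83.2 CPM in SE-WT (log2 change -0.59 ± 0.19, adjusted p = 0.126). Both passed in all 17 alternatives of the cKO comparison.

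Among Kv alpha subunits the falls in cKO mice reached delayed rectifiers, M-channel subunits, the A-type subunit Kcnd2 and silent subunits. Kcna2 (Kv1.2), a channel of axons and their terminals on chromosome 3 from 107090883 to 107115005, was at 230.1, 353, 208 and 314 CPM in sham-cKO and 134, 115 and 129.7 CPM in SE-cKO. The SE-cKO mice were all below the sham mice, with a log2 fold change of -1.16 ± 0.20 (adjusted p = 0.00385). The WT mice were at 228, 232 and 189 CPM in sham-WT and 263, 152 and 294 CPM in SE-WT, with overlapping groups and a log2 fold change of 0.10. Kcnb2 (Kv2.2), a delayed rectifier, went from 67.3, 60.1, 57.3 and 94.7 CPM in sham-cKO to 34.8, 18.6 and 21.6 CPM in SE-cKO (log2 change -1.51 ± 0.26, adjusted p = 0.00434). The silent subunit Kcng2, which modifies Kv2 channels, was at 8.41, 7.30, 10.8 and 10.7 CPM in sham-cKO and 4.85, 3.55 and 3.08 CPM in SE-cKO (log2 change -1.31 ± 0.24, adjusted p = 0.00558) and at 7.63, 9.12 and 14.1 CPM in sham-WT and 1.42, 0.798 and 5.47 CPM in SE-WT (log2 change -2.03 ± 0.68, adjusted p = 0.149). The WT groups did not overlap there although the test did not pass. The cKO call of Kcng2 was made in 14 of 17 alternatives.

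Of the M-channel subunits, Kcnq3 (Kv7.3), on chromosome 15 from 65986374 to 66286636, was at 192, 303, 186 and 289 CPM in sham-cKO and 97.7, 121 and 125 CPM in SE-cKO, a log2 fold change of -1.11 ± 0.21 (adjusted p = 0.00607). WT values were 174, 199.9 and 175 CPM in sham-WT and 184, 188 and 205 CPM in SE-WT, a log2 fold change of 0.04. Kcnq5 (Kv7.5), on chromosome 1 from 21398399 to 21962650, was at 84.8, 48.1, 102 and 84.8 CPM in sham-cKO and 28.9, 23.5 and 38.9 CPM in SE-cKO (log2 change -1.42 ± 0.27, adjusted p = 0.00661) and at 82.6, 92.0 and 96.5 CPM in sham-WT and 62.8, 86.2 and 60.1 CPM in SE-WT (log2 change -0.40 ± 0.17, adjusted p = 0.243). Kcnd2 (Kv4.2), the A-type channel of pyramidal dendrites, fell from 167, 216, 152.8 and 220.5 CPM in sham-cKO to 96.0, 104 and 136 CPM in SE-cKO (log2 change -0.78 ± 0.18, adjusted p = 0.0151), and in WT mice was at 157, 193 and 168 CPM in sham-WT and 102, 175 and 145 CPM in SE-WT (log2 change -0.32 ± 0.21, adjusted p = 0.443). Kcnc2 (Kv3.2), a fast channel of interneurons that is also strong in thalamus, was at 126, 380, 126 and 137 CPM in sham-cKO and 54.2, 39.6 and 58.7 CPM in SE-cKO (log2 change -1.95 ± 0.43, adjusted p = 0.0127), where the highest sham value was the thalamic library. The SE-cKO mice were below the other 3 sham mice too. Other Kv calls were Kcnh7, of the erg family, and the silent subunits Kcns3, Kcng3 and Kcnv1, with log2 fold changes from -1.57 to -0.83.

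Other Kv subunits with well-known roles did not pass in cKO mice. Kcna1 (Kv1.1), whose loss causes seizures in mice, was at 189.9, 231, 186 and 247 CPM in sham-cKO and 143, 184 and 215 CPM in SE-cKO (log2 change -0.27 ± 0.17, adjusted p = 0.292). Kcna3 (Kv1.3), a channel of T cells and activated microglia, was at 10.6, 8.64, 9.74 and 8.09 CPM in sham-cKO and 10.4, 5.60 and 7.83 CPM in SE-cKO (log2 change -0.25 ± 0.23, adjusted p = 0.503). Kcnc1 (Kv3.1), a channel of fast-spiking interneurons, was at 61.1, 126, 61.5 and 83.0 CPM in sham-cKO and 38.7, 44.5 and 68.2 CPM in SE-cKO (log2 change -0.75 ± 0.30, adjusted p = 0.11), with its highest sham value in the thalamic library. In WT mice Kcna1, Kcna3 and Kcnc1 had log2 fold changes of 0.09, 0.36 and 0.62, none of which passed.

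Of the 8 activated channels, 4 fell in cKO mice. Kcnt2, a sodium-activated channel (Slick), was at 74.4, 69.0, 74.8 and 81.1 CPM in sham-cKO and 37.7, 31.4 and 29.6 CPM in SE-cKO, a log2 fold change of -1.21 ± 0.12 (adjusted p = 0.00028). In WT mice it was at 77.4, 78.8 and 70.4 CPM in sham-WT and 71.3, 30.6 and 34.1 CPM in SE-WT (log2 change -0.77 ± 0.31, adjusted p = 0.223), with 1 SE-WT mouse inside the sham range. Kcnt1 (Slack), its relative on chromosome 2 from 25863791 to 25918273, was at 34.5, 32.7, 42.3 and 39.0 CPM in sham-cKO and 29.4, 22.4 and 20.5 CPM in SE-cKO (log2 change -0.65 ± 0.16, adjusted p = 0.0216), a call lost without SE-cKO replicate 2 or 3 or sham-cKO replicate 3 (adjusted p = 0.0602 to 0.0757). In WT mice Kcnt1 was at 45.3, 32.6 and 33.6 CPM in sham-WT and 63.6, 76.0 and 39.2 CPM in SE-WT (log2 change 0.66 ± 0.26, adjusted p = 0.211). Kcnn2 (SK2), which carries afterhyperpolarisation, was at 44.9, 36.8, 44.5 and 45.2 CPM in sham-cKO and 25.0, 22.6 and 24.3 CPM in SE-cKO (log2 change -0.87 ± 0.12, adjusted p = 0.00134). Kcnma1, the BK channel, was at 329, 353, 325 and 380.5 CPM in sham-cKO and 183, 193 and 259.6 CPM in SE-cKO (log2 change -0.74 ± 0.14, adjusted p = 0.00744). Kcnma1 and Kcnn2 were called in 15 of 17 alternatives each. In WT mice Kcnn2 had a log2 fold change of -0.60 and Kcnma1 of -0.07, the latter positive in 4 of 16 alternatives, among them those that left out or adjusted for the striatal library.

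Of the GIRK subunits, Kcnj9 (GIRK3) was at 81.1, 113, 65.0 and 87.2 CPM in sham-cKO and 55.1, 36.8 and 51.6 CPM in SE-cKO (log2 change -0.88 ± 0.21, adjusted p = 0.0179), a call lost without SE-cKO replicate 2 (adjusted p = 0.0644). Kcnj3 (GIRK1) was at 144, 157, 145 and 187 CPM in sham-cKO and 108, 87.9 and 123 CPM in SE-cKO (log2 change -0.60 ± 0.15, adjusted p = 0.0207), a call lost without SE-cKO replicate 1 or 2 or sham-cKO replicate 4 (adjusted p = 0.0515 to 0.0618). Kcnj6 (GIRK2) did not pass, at 118, 114, 112 and 148 CPM in sham-cKO and 60.9, 119 and 96.98 CPM in SE-cKO (log2 change -0.44 ± 0.21, adjusted p = 0.184). In WT mice all 3 were lowest in the striatal library, at 24.4 CPM of Kcnj9, 26.5 CPM of Kcnj3 and 31.4 CPM of Kcnj6, and none passed. Among other inward rectifiers, Kcnj2 (Kir2.1) had log2 fold changes of 0.74 ± 0.27 (adjusted p = 0.181) in WT and 0.38 ± 0.19 (adjusted p = 0.195) in cKO mice, and Kcnj8 (Kir6.1), a channel of pericytes, of 0.45 ± 0.25 (adjusted p = 0.359) and 0.53 ± 0.42 (adjusted p = 0.423). Kcnj4 (Kir2.3) was at 63.2, 36.4, 60.6 and 81.5 CPM in sham-cKO and 62.9, 27.0 and 54.7 CPM in SE-cKO, with overlapping groups.

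Kcnk9 encodes TASK-3, an acid-sensitive K2P channel of neurons, and lies on chromosome 15 from 72501873 to 72548614. It was at 51.5, 52.3 and 57.7 CPM in sham-WT, 69.1, 59.5 and 51.8 in SE-WT, 67.8, 56.1, 68.3 and 75.3 in sham-cKO and 27.4, 18.4 and 23.5 CPM in SE-cKO. The 3 SE-cKO mice were below all other 10 libraries. The log2 fold change after SE was 0.13 ± 0.14 (adjusted p = 0.646) in WT and -1.56 ± 0.17 (adjusted p = 0.000368) in cKO mice, and the latter passed in all 17 alternatives. Kcnk1 (TWIK-1), the most abundant K2P transcript, was at 109.7, 87.1 and 83.6 CPM in sham-WT, 76.5, 76.6 and 84.4 in SE-WT, 74.5, 93.2, 65.7 and 81.0 in sham-cKO and 71.7, 88.3 and 90.6 CPM in SE-cKO, with overlap throughout and log2 fold changes of -0.27 and 0.06 that did not pass.

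**Figure D3:**
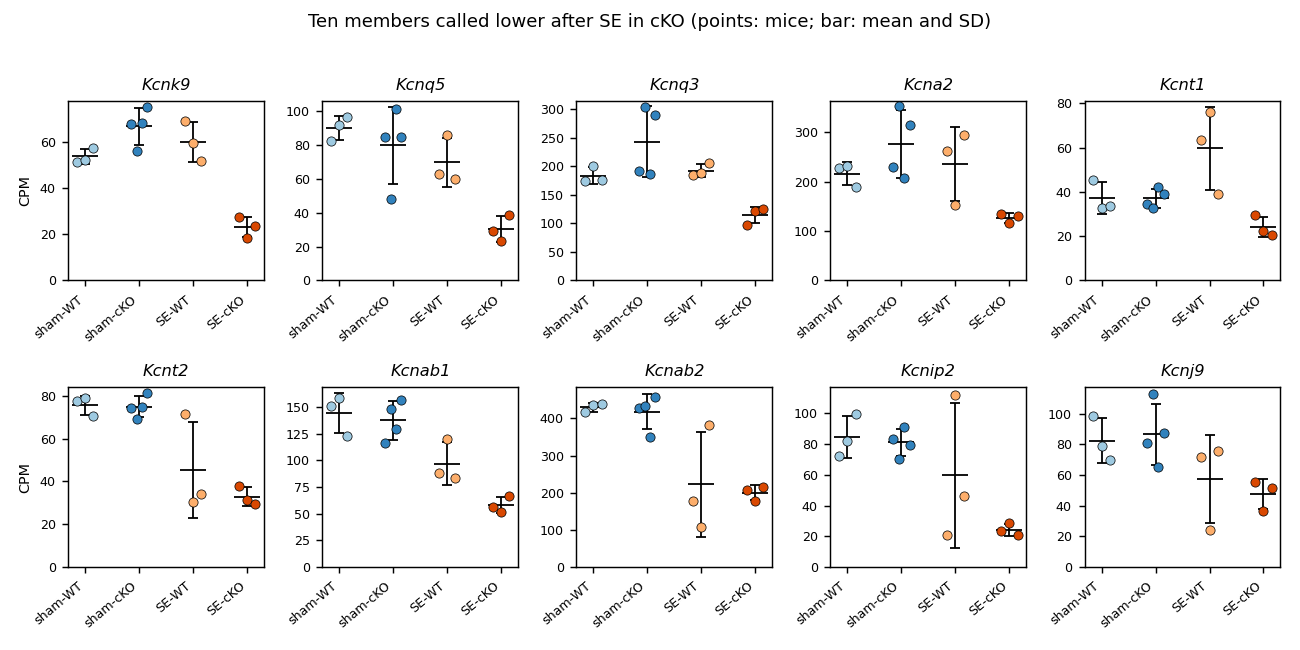
CPM (vertical axis, from 0) in each of the 4 groups for 10 of the 22 members called lower after SE in cKO mice, with 1 point per mouse and bars for the mean and SD. The SE-cKO points lie below the sham-cKO points in every panel, and for Kcnk9, Kcnq5, Kcnq3, Kcna2, Kcnt1 and Kcnab1 also below all SE-WT points.

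Genes of proteins that bind channels but carry no Kcn symbol were counted from a list of 18, of which 16 were tested. In cKO mice 7 were lower and none higher after SE, where 8.92% of all genes were called lower and 13.8% higher. In WT mice none passed, where 0.832% of all genes were called lower and 4.57% higher. The 7 were Cntnap2 (Caspr2, which clusters Kv1 channels along axons), Lgi1 and Adam22 (a secreted ligand and its receptor that organise Kv1 channels and synapses), Dpp10 (a Kv4 subunit), Amigo1 (a Kv2 subunit), Abcc8 (SUR1, the sulfonylurea subunit of KATP channels) and Dlg4 (PSD-95). The largest fall among them was Dpp10, at -1.84 ± 0.37 (adjusted p = 0.00871), and Cntnap2 was at -1.58 ± 0.12 (adjusted p = 7.09e-05). Beside these genes, 8 general neuronal markers were measured. Their median log2 difference from sham was -0.50 ± 0.28 in SE-cKO and -0.16 ± 0.32 in SE-WT (SD, n = 3 each), 3 of 8 were called lower in SE-cKO and none in SE-WT, and they summed to 4865 to 5673 CPM in sham-cKO, 3047 to 4065 in SE-cKO, 4872 to 5568 in sham-WT and 3853 to 5033 CPM in SE-WT. Over all tested members the median difference was -0.41 ± 0.20 in SE-cKO and -0.03 ± 0.13 in SE-WT. Of 8 granule cell markers, 4 fell in cKO and 3 in WT mice, and of 8 CA pyramidal markers 3 and 1. The part of these lists in the lower channel values was not tested.

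The WT and cKO comparisons share no library, so their values can be set side by side. Over the 83 members tested in both, Pearson's r across genes was 0.57 and Spearman's rho 0.47, as a description, since genes are not independent replicates. Signs were shared by 50 members, of which 35 were lower and 15 higher in both. Kcnk6 and Kcnk13 were called higher in both, 3 members were called in WT only and 26 in cKO only. The 6 members called higher in cKO mice had a median log2 fold change of 2.36 there and 1.45 in WT mice, where all 6 values were positive. The 22 called lower had a median of -1.13 in cKO and -0.45 in WT mice, where 16 were negative and values ran from -2.03 (Kcng2) to 0.66 (Kcnt1). Both sets were picked by their cKO call, which favours larger changes there. The medians therefore do not show a stronger response in cKO mice. Of the remaining members, 52 were tested in both and called in neither. By subfamily, the median over tested members in cKO mice was -0.63 for Kv alpha subunits, -0.69 for activated channels, -0.66 for auxiliary subunits, -0.35 for inward rectifiers and 0.06 for K2P channels, and in WT mice it was 0.09, -0.13, 0.07, -0.05 and 0.27 in the same order. The K2P channels had the highest median in both genotypes. Some members stood apart in the striatal library alone, and were picked after their values were seen. Kcna5 (Kv1.5) was at 2.27, 18.9 and 2.27 CPM in SE-WT, and Kcnk12 (THIK-2) at 3.30, 0.785 and 6.63 CPM, with the striatal library as the second value of each. A call in 1 genotype and not in the other does not show that they differ, and the interaction below tests that.

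**Figure D4:**
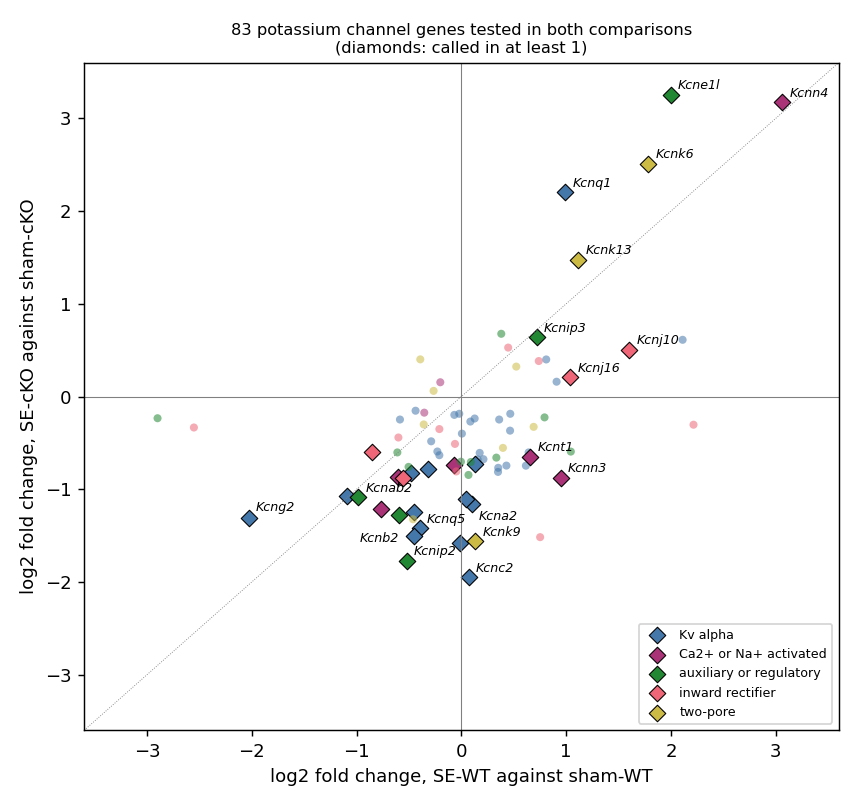
Log2 fold change after SE in WT mice (horizontal axis) against that in cKO mice (vertical axis) for the 83 members tested in both, coloured by subfamily, with diamonds for members called in at least 1 of the comparisons and a dotted line of equal change. Most diamonds below 0 on the vertical axis lie under the dotted line, but they were picked mainly by their cKO call, which favours that side. Kcne1l, Kcnk6, Kcnk13 and Kcnn4 are above 0 on both axes.

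The effect of SE was compared between genotypes with an interaction term, the log2 change in cKO mice minus that in WT mice, over all 13 libraries. Kcnk9 was the only member called out of 85, with a difference of -1.69 ± 0.22 (adjusted p = 0.0418), which is 1.18% of members against 0.159% of all genes. At an unadjusted p under 0.05 there were 20 members, 19 of them negative, against 12.5% of all genes, and DESeq2 called 6 members against 3.58% of all genes. The median difference was -0.46 over the members and 0.03 over all genes. Kcnk9 was called in 11 of 22 alternatives, and the call was lost on leaving out any sham-WT mouse, any sham-cKO mouse but the thalamic replicate 2, or SE-cKO replicate 2 (adjusted p = 0.0656 to 0.14). Over the 22 alternatives the difference ran from -1.99 to -1.55 and the adjusted p from 5e-09 to 0.149. The next members by p were Kcnq3 at -1.16 ± 0.26 (adjusted p = 0.112), Kcnt1 at -1.31 ± 0.31 (adjusted p = 0.136), Kcnn3 at -1.82 ± 0.45 (adjusted p = 0.144), Kcna2 at -1.26 ± 0.33 (adjusted p = 0.161) and Kcnj12 (Kir2.2) at -2.27 ± 0.62 (adjusted p = 0.17). None of these 5 passed, while all 5 passed in DESeq2 (adjusted p = 0.00372 to 0.0171), and Kcnt1 also in edgeR without SE-WT replicate 3 (adjusted p = 0.0388) and without SE-WT replicate 3 and SE-cKO replicate 3 together, the libraries with another style of title (adjusted p = 0.0387).

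Between SE-cKO and SE-WT mice, which asks how the genotypes differed after SE, edgeR called none of 83 members and 0% of 21126 genes. At an unadjusted p under 0.05, 20 members were lower and 1 higher in SE-cKO, 25.3% of the members against 9.68% of all genes. DESeq2 called 10 members, all lower, against 2.75% of all genes called by DESeq2, limma voom called none, and a fit of all 4 groups called 2 (Kcnk9 and Kcnt1). The SE-cKO mice were all below the SE-WT mice for 13 members and all above for 3, against 5.68% and 9.3% of all genes. The median log2 difference was -0.42 over the members and 0 over all genes, and 61 of 83 were negative. The 6 members with the smallest p were Kcnk9 (log2 change -1.42 ± 0.20, adjusted p = 0.236), Kcnq5 (log2 change -1.23 ± 0.25, adjusted p = 0.29), Kcnt1 (log2 change -1.35 ± 0.28, adjusted p = 0.29), Kcnq3 (log2 change -0.78 ± 0.17, adjusted p = 0.296), Kcnn3 (log2 change -0.91 ± 0.20, adjusted p = 0.304) and Kcnj12 (log2 change -1.75 ± 0.41, adjusted p = 0.319). Kcnj12 was at 10.9, 10.3 and 20.9 CPM in SE-WT, highest in the thalamic library, and 5.70, 2.495 and 4.62 CPM in SE-cKO. Kcnk2 (TREK-1), with the next smallest p, was at 33.4, 48.8 and 24.5 CPM in SE-WT and 17.2, 15.5 and 18.1 CPM in SE-cKO.

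Between sham-cKO and sham-WT mice none of 83 members passed, and 0% of 20785 genes did. There were 5 members with an unadjusted p under 0.05, all higher in sham-cKO, which is 6.02% of the members against 5.54% of all genes, and DESeq2 called none against 0.0546% of all genes. These were Kcnma1 (0.26 on the log2 scale), Kcnk9 (0.33), Kcnn3 (0.97), Kcnj16 (0.32) and Kcne4 (0.66), each with adjusted p = 0.868, and Kcnc1 followed at 0.57. Kcnk9 was at 51.5, 52.3 and 57.7 CPM in sham-WT and 67.8, 56.1, 68.3 and 75.3 CPM in sham-cKO, with overlap.

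Kcne2 and Kcnj13 varied with the choroid plexus, whose epithelium uses Kcne2 as a regulatory subunit and Kcnj13 (Kir7.1) as an apical channel. The 6 other choroid plexus markers, Ttr among them, summed to 19.4 CPM in the lowest library and 4402 CPM in the highest, and ran from 52.2 to 4402 CPM within the sham-WT group alone. Kcne2 was at 0.432, 9.33 and 27.6 CPM in sham-WT, 0.109, 0, 13.2 and 0.213 in sham-cKO, 0.338, 0.936 and 3.78 in SE-WT and 8.32, 0.360 and 0.0598 CPM in SE-cKO. Kcnj13 was at 2.49, 17.0 and 55.9 CPM in sham-WT, 2.19, 0.591, 34.1 and 1.64 in sham-cKO, 2.69, 4.02 and 6.31 in SE-WT and 20.9, 1.97 and 0.433 CPM in SE-cKO. The 4 libraries with the most marker CPM, sham-WT replicates 2 and 3, sham-cKO replicate 3 and SE-cKO replicate 1, were also the 4 highest for both genes. Neither gene passed in any of the 5 comparisons.

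**Figure D5:**
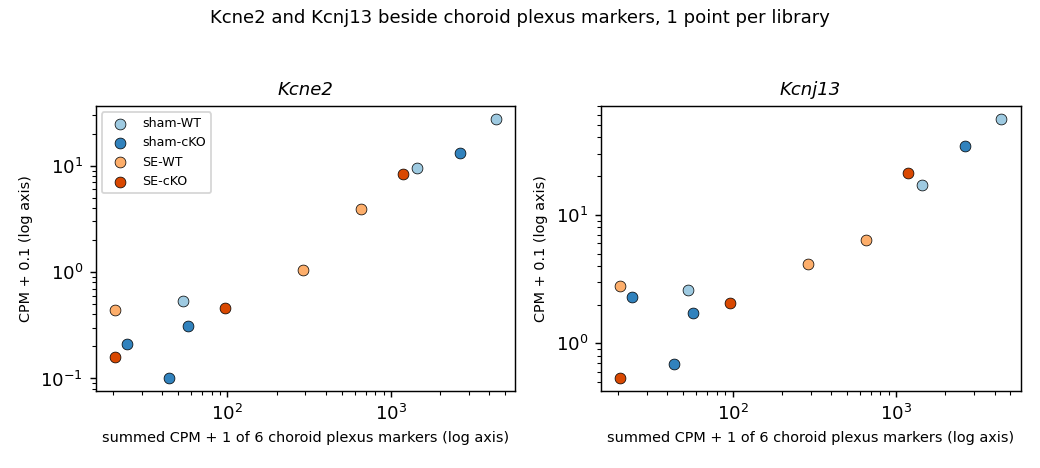
CPM + 0.1 of Kcne2 and Kcnj13 (vertical axes, log scale) against the summed CPM + 1 of 6 choroid plexus markers (horizontal axes, log scale), with 1 point per library coloured by group. The 4 libraries with the most marker CPM hold the highest values of both genes and come from 3 of the 4 groups.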

How the data were processed

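Total RNA of 13 hippocampi was extracted with TRIzol and made into TruSeq stranded libraries. The authors converted reads with bcl2fastq 2.20.0, applied Trimmomatic, mapped to mm10 (HISAT2 2.1.0) and quantified 45777 genes with StringTie 2.1.3b. The strand setting is not given in the sources used here. The deposited read count per gene (59659977 to 84354243 per library) was used for every test, the deposited TPM only to compare levels between genes, and the deposited FPKM not at all.

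Members, lists and alternatives were chosen with earlier results of these data known. Groups were compared in R 4.3.3 by edgeR 4.0.16 (robust quasi-likelihood fit) on counts filtered by filterByExpr (minimum count 10, minimum total 15) and normalised by TMM, with the libraries of the 2 groups, or all 13 for the interaction. Called means an adjusted p (Benjamini-Hochberg over all genes tested) under 0.05. Standard errors of log2 fold changes were derived from the test, as the absolute log2 fold change divided by the square root of the quasi-likelihood F statistic. Log2 CPM used a prior count of 2. The methods were tested on simulated data. The SDs and tests rest on 3 or 4 mice per group.

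Named genes were, per SE comparison, up to 4 called members of each subfamily and direction with the smallest p, the 6 smallest p of the other comparisons, 21 members with known roles and the 5 highest by TPM per subfamily. Others were chosen after their values were seen. Counts cover all members, and 2 of them are not reported by name here nor drawn in the heat map. Replicate numbers were not taken to pair the mice. Correlations of same-numbered libraries were -0.074 to 0.249, but other pairs were not computed beside them, so they cannot decide the question. Alternatives used DESeq2 1.42.0, limma 3.58.1 (voom with quality weights), RLE size factors, no low-count filter, a fit of all 4 groups, a replicate block, covariates (Xist level, or striatal and thalamic marker levels) and left-out libraries.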

Additional observations from a re-analysis of the deposited data

Results flagged for a closer look

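The SE effect on Kcnk9, the gene of the K2P channel TASK-3, differed between genotypes by the interaction term, at -1.69 on the log2 scale (cKO minus WT, standard error 0.22, adjusted p = 0.0418, edgeR quasi-likelihood test over 13 libraries). It passed in 11 of 22 alternatives, and was lost in 7 of the 13 that left out 1 library (adjusted p = 0.0656 to 0.14). It was also lost with the replicate block, with Xist as a covariate and with the striatal and thalamic covariates. The fit without the 3 libraries high in those markers did not pass either, but it leaves a single SE-WT mouse and its p is not read. The SE-cKO mice were at 27.4, 18.4 and 23.5 CPM and the other 10 libraries between 51.5 and 75.3 CPM.

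Among the 45 named genes, a single sham-cKO mouse stood apart from the other 3 by Dixon's criterion in 8 genes. The criterion flags about 1 in 20 groups of normally distributed values. The genes share the same mice and the share over all genes was not taken, so nothing is read from the size of this count. In sham-cKO replicate 2, the library high in thalamic markers, Kcnc2 was at 380 CPM, Kcnj12 at 23.3 CPM and Kcne4 at 2.64 CPM, each the highest of its group, and Kcnn2 at 36.8 CPM, the lowest. In sham-cKO replicate 3, the library of the group with the most choroid plexus markers, Kcne2 was at 13.2 CPM and Kcnj13 at 34.1 CPM. In sham-cKO replicate 4, Kcnj6 was highest at 147.5 CPM and Kcnj16 lowest at 17.1 CPM.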

How the results depend on the processing

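Each comparison rests on 3 or 4 mice per group, and the count of members called moved with the method and with single libraries. Shares over all genes were taken for few of these alternatives, so the counts show only how the calls moved. DESeq2 called 8 members higher and 2 lower after SE in WT mice, 10 between SE-cKO and SE-WT and 6 in the interaction. limma voom called 8 higher and 3 lower in WT mice. The fit of all 4 groups called 1 lower in WT mice and 2 between the SE groups. Xist as a covariate gave 3 lower in WT mice, 3 higher in cKO mice, 3 between the SE groups and 0 interactions, and the striatal and thalamic levels as covariates gave 1 lower in WT mice, 3 between the SE groups and 0 interactions. Without the 2 libraries of the other title style there were 2 lower in WT mice and 2 interactions. With the 1 striatal and 2 thalamic libraries left out, a single SE-WT mouse remained, assumed to vary like the others. Calls that involve WT mice are not read from that fit, and its fold changes below are given as effect sizes only. The replicate block, which pairs libraries by replicate number alone, gave 3 higher in WT mice, 13 lower in cKO mice and 0 interactions. Leaving out 1 library at a time gave 0 to 7 higher and 0 to 3 lower in WT mice, 4 to 5 higher and 13 to 24 lower in cKO mice, and 0 to 2 interactions, and 0 between genotypes within sham or within SE. Among named genes 13 values changed sign, none of them called. In WT mice Kcnma1 was at 0.049 with voom, 0.34 with the 2 covariates, 0.39 without the 3 libraries and, leaving out single libraries, between -0.34 and 0.20. Kcnq3 was at -0.012 with voom, -0.13 with the 2 covariates and -0.001 without the 3 libraries, and Kcnb2 at 0.062 with the covariates and 0.10 without the 3 libraries. Kcna2 was at -0.058 with Xist, and at -0.068 without the 2 libraries and without SE-WT replicate 3. Kcnj16 in cKO mice was at -0.22 without SE-cKO replicate 1 and 0.43 without SE-cKO replicate 2. Of the other values for named genes, 930 kept their direction and side of the threshold, 55 passed it anew and 85 no longer passed. The causes were not tested.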
